A study of Mus musculus with 8 samples.

Results

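The SOX transcription factor family was followed through RNA-seq of mouse embryonic stem cells (ESCs) kept in 4 combinations of self-renewal signals. The 9 genes described are Sox1, Sox2, Sox3, Sox4, Sox11, Sox12, Sox13, Sox15 and Sox21. They were matched by symbol, and each was found once among the 38991 genes of the data. SOX proteins share a DNA-binding HMG box, through which they bend DNA and act with partner factors. They are sorted into groups by the similarity of that box. Sox2, of group B1 with Sox1 and Sox3, acts with the POU factor Oct4 (Pou5f1) at many genes of pluripotent cells and also marks neural progenitors. Sox21 is a group B2 relative that mainly represses. Sox4, Sox11 and Sox12 form group C, Sox13 belongs to group D and Sox15 is the single member of group G.

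All cultures were of 1 line, Rex1GFPd2, of strain 129, in which a short-lived GFP reports on the gene Rex1 (Zfp42). The cells were derived and kept in 2i for 6 passages. They were then held for 5 more passages, to passage 11, on gelatin in N2B27 medium with 1 of 4 sets of additives. These were 2i+LIF (CH, PD and LIF), 2i (CH and PD), LIF+PD and CH+LIF, with 2 cultures each, 8 in all. CH (CHIR99021, 3 µM) inhibits GSK3 and thereby stabilises β-catenin. PD (PD0325901, 1 µM) inhibits MEK, the kinase upstream of ERK. LIF is a cytokine that activates Stat3. Cells were passaged every 3 days at 15000 cells per square centimetre. The comparisons therefore show the SOX genes after removal of LIF (2i), of CH (LIF+PD) or of PD (CH+LIF) from 2i+LIF, and between the media with a pair of additives. No source used here says that the 2 cultures of a condition were started separately, so the p-values measure the spread between these cultures, which may be technical.

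Values are FPKM, fragment numbers scaled to transcript length and library total, as deposited. FPKM is per length, so levels of different genes can be set side by side. The sums of FPKM ranged from 715575 to 875458 per culture, and 11659 to 12109 genes reached an FPKM of 1. Read depth is not part of FPKM. It was estimated, relative to replicate 1 of 2i+LIF, at 0.499 for replicate 1 of 2i and at 0.903 to 1.18 for the other cultures, so the low SOX values of that 2i culture rest on the lowest estimated depth. All 8 markers of naive ESCs were at or above an FPKM of 1 in every culture, but their levels differed between media. Klf4 went from 203 and 196 in 2i+LIF to 47.7 and 50.6 in 2i. Nanog went from 549 and 476 in 2i+LIF to 305 and 283 in CH+LIF. Sall4 went the other way, from 218 and 238 in 2i+LIF to 331 and 337 in LIF+PD. Neural progenitor markers, of which Sox1 is 1 of 8, summed to at most 20.9, with Fabp7 listed at 0 throughout. The LIF+PD sums were mostly Pax6 (11.3 and 10.7) and Nes (7.67 and 7.14). Pax6 was at 0.577 and 0.459 in 2i+LIF and at 7.81 and 9.20 in 2i. Nes was at 4.90 and 4.10 in 2i+LIF and at 1.42 and 1.41 in CH+LIF. Fibroblast markers, 6 genes, summed to 0.270 and 0.617 in 2i+LIF, 1.496 to 4.19 in 2i and LIF+PD and 4.00 and 17.1 in CH+LIF. Of these, Dcn and Col3a1 were listed at 0 in every culture, Thy1 went from 0.117 and 0.160 in 2i+LIF to 2.85 and 2.95 in CH+LIF, and Postn was at 14.1 in replicate 2 of CH+LIF and at most 0.0338 elsewhere. Primitive endoderm markers, 7 genes, summed to 3.76 and 5.27 FPKM in LIF+PD and to 1.87 to 2.94 in the other media. Only in LIF+PD did any of them reach 1 in both cultures. These were Gata4 (1.93 and 1.83) and Dab2 (1.08 and 1.93).

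The members differed widely in level. Sox2 was highest in every culture, at 157 to 264 FPKM. Sox12 (24.8 to 42.0), Sox15 (19.9 to 42.3) and Sox13 (8.55 to 32.0) were intermediate. Sox21 ranged from 0.608 to 16.4, and Sox4 (0.562 to 5.74), Sox11 (0.585 to 5.37), Sox3 (0.384 to 2.64) and Sox1 (0 to 1.83) were low. In the order of the means over the 8 cultures (Sox2, Sox12, Sox15, Sox13, Sox21, Sox4, Sox11, Sox3, Sox1), the range of Sox2 overlapped that of no other member. From Sox12 onwards, the ranges of all neighbours overlapped.

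**Figure D1:**
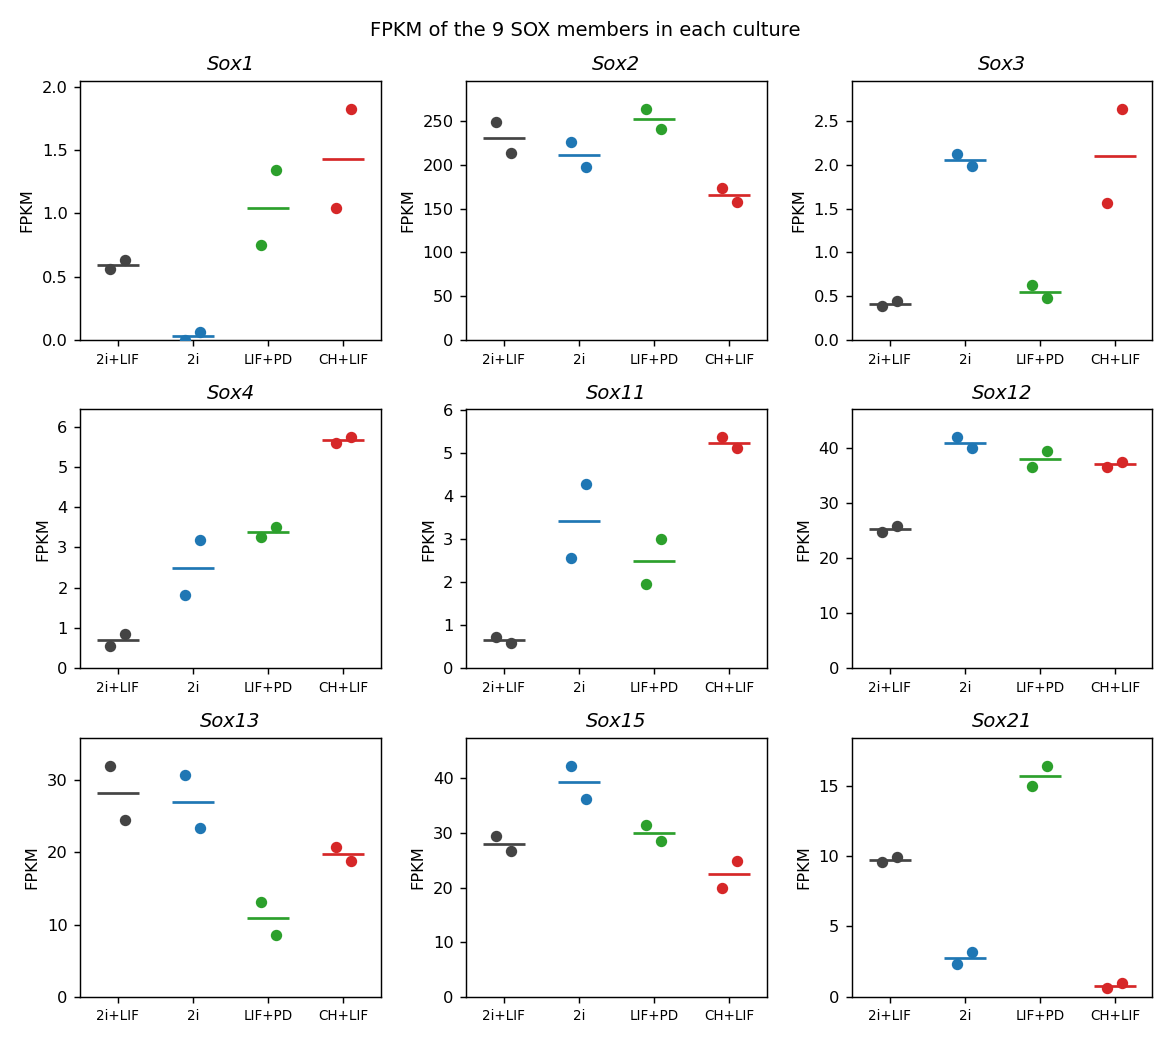
FPKM (linear vertical axis, from 0, separate scale in each panel) of each SOX gene in the 8 cultures, by medium. Points are single cultures and bars are means of 2 cultures. Sox21 runs from 0.608 in CH+LIF to 16.4 in LIF+PD, whereas Sox2 stays between 157 and 264.

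A gene was tested when its FPKM was at least 1 in at least 2 cultures, which 12927 genes were, all 9 SOX genes among them. Sox2, Sox12, Sox13 and Sox15 were at or above 1 in all 8 cultures. Sox4, Sox11 and Sox21 were so in 6, Sox3 in 4 and Sox1 in 3, so these 5 passed only through the media in which they were higher. Differences are log2 fold changes of (FPKM + 1), a scale that understates the change of weakly expressed genes. They come from limma with Benjamini-Hochberg adjustment over all 12927 genes, and a difference was called at an adjusted p below 0.05. In a test for any difference among the 4 media, 9 of 9 SOX genes passed, against 46.8% of all tested genes. The 9 genes were chosen with earlier results of these data known. This count and those below therefore describe these genes and do not test the family. Sox21 had the smallest adjusted p (8.58e-05), at place 105 of all genes tested, and Sox2 the largest (0.0170).

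Without LIF, 5 of 9 SOX genes were called, against 18.6% of all tested genes. Sox3, Sox4, Sox11 and Sox12 rose, as did 9.77% of all genes, and Sox21 fell, as did 8.86%. Without CH, 5 of 9 were called, against 25.2% of all genes. Sox4, Sox11, Sox12 and Sox21 rose (14.8% of all genes) and Sox13 fell (10.4%). Without PD, 6 of 9 were called, against 25.4%. Sox3, Sox4, Sox11 and Sox12 rose (12.2% of all genes) and Sox2 and Sox21 fell (13.3%). The cultures of the 2 media did not overlap for 7, 7 and 9 of the 9 genes in these 3 comparisons, against 61.0%, 66.6% and 67.0% of all tested genes. The 3 comparisons share the 2i+LIF cultures. The median log2 difference of the 9 genes was 0.47, 0.34 and 0.53, and that of all tested genes was 0.035, 0.034 and 0.0070. Rescaling every culture to the same sum (TPM) moved the median of all genes by 0.12 without CH and 0.18 without PD, and the share of higher calls among all genes from 58.6% to 74.8% and from 47.9% to 74.1%. Under that scaling no called SOX difference turned.

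**Figure D2:**
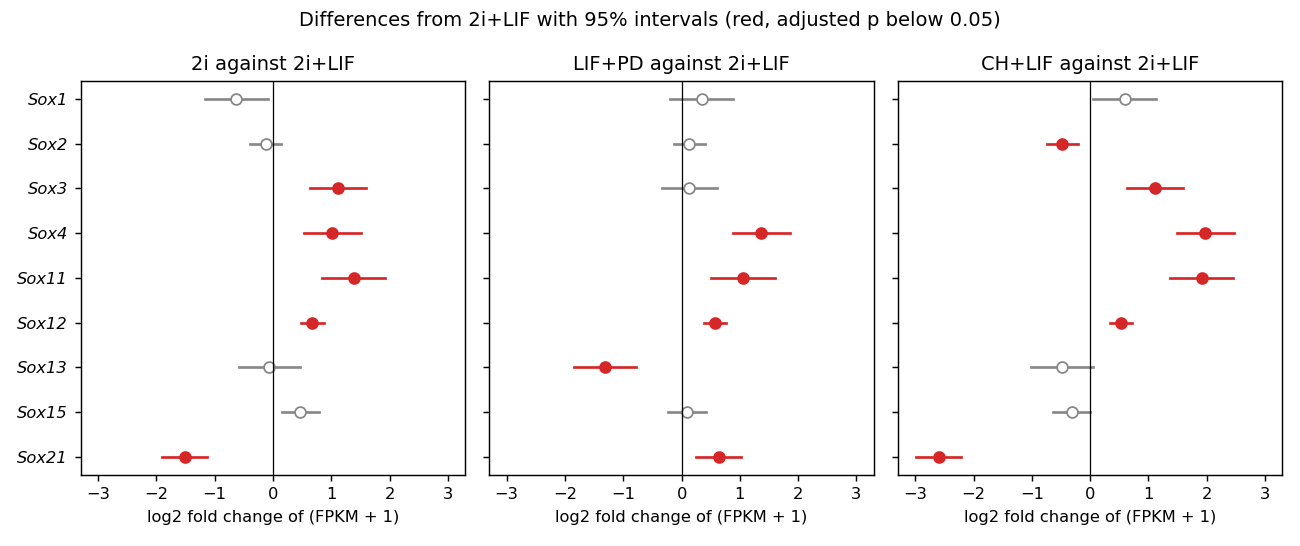
Log2 fold change of (FPKM + 1) of each SOX gene (rows) in 2i, LIF+PD and CH+LIF against 2i+LIF, with 95% intervals from the limma fit of all 8 cultures. Filled red points have an adjusted p below 0.05. Sox4, Sox11 and Sox12 lie to the right in all 3 panels, and Sox21 lies to the left in 2i (-1.52) and CH+LIF (-2.60) and to the right in LIF+PD (0.63).

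Of the media with a pair of additives, LIF+PD and 2i differed in 4 of 9 SOX genes, against 25.1% of all tested genes. Sox1 and Sox21 were higher in LIF+PD (14.0% of all genes), and Sox3 and Sox13 were lower (11.1%). CH+LIF and 2i differed in 4 of 9, against 23.9%. Sox1 and Sox4 were higher in CH+LIF (10.6%), and Sox15 and Sox21 were lower (13.3%). CH+LIF and LIF+PD differed in 5 of 9, against 30.4%. Sox3, Sox11 and Sox13 were higher in CH+LIF (12.6%), and Sox2 and Sox21 were lower (17.8%). Cultures did not overlap for 8, 8 and 7 of the 9 genes, against 62.7%, 63.3% and 68.4% of all tested genes. For CH+LIF against 2i, TPM moved the median of all genes by 0.12 and the share of higher calls from 44.5% to 64.1%.

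Sox2 (ENSMUSG00000074637, chr3:34650005-34652461 of mm10, plus strand, 1 exon) is required for the pluripotent state. Its FPKM was 249 and 214 in 2i+LIF, 226 and 198 in 2i, 264 and 242 in LIF+PD and 174 and 157 in CH+LIF. Both CH+LIF cultures were below all 6 others, whereas 2i and LIF+PD each overlapped 2i+LIF. The mean in CH+LIF, 166 ± 11.9 (SD, n = 2), was 0.716 of that in 2i+LIF, 231 ± 24.8 (SD, n = 2). On the log2 scale Sox2 fell by 0.48 ± 0.11 (SE, adjusted p = 0.0230) without PD, and by 0.27 under TPM. It was lower in CH+LIF than in LIF+PD by a log2 difference of -0.61 (adjusted p = 0.00738). Without LIF and without CH the log2 differences were -0.13 (95% interval -0.39 to 0.14) and 0.13 (-0.14 to 0.40), with adjusted p-values of 0.478 and 0.437. Under TPM the difference without CH was 0.27 and was called (adjusted p = 0.0466), as was that of LIF+PD from 2i, 0.33 under TPM (adjusted p = 0.0246) and 0.26 as deposited (adjusted p = 0.145). The call without PD was lost without replicate 1 of 2i+LIF (adjusted p = 0.119), replicate 1 of CH+LIF (0.0588) or replicate 2 of CH+LIF (0.106), and that against LIF+PD was lost without replicate 1 of LIF+PD (0.0504).

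Replicate 1 was above replicate 2 for Sox2 in 4 of 4 media, and the same held for Sox13. For Sox1, Sox4 and Sox21, replicate 2 was the higher one in 4 of 4. The Sox2 gene lies inside Sox2ot, a long noncoding transcript of the same strand, which was measured at 0.427 to 1.37 FPKM and was not tested because it did not pass the filter. The FPKM of Sox2 also lay above the upper bound that the files give for it in 8 of 8 cultures, for example 249 against a bound of 239 in replicate 1 of 2i+LIF. Sox15 lay outside its bounds in 6 of 8 cultures, and the other 7 members in none.

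Sox3 (ENSMUSG00000045179, chrX:60891370-60893430, minus strand, 1 exon), a B1 gene of the early neural plate, was low and split the media into pairs. It was measured at 0.384 and 0.438 FPKM in 2i+LIF, 2.12 and 1.98 in 2i, 0.624 and 0.479 in LIF+PD and 1.57 and 2.64 in CH+LIF. The 4 cultures of 2i and CH+LIF all lay above the 4 of 2i+LIF and LIF+PD. Sox3 rose by a log2 difference of 1.11 ± 0.20 (SE) without LIF (adjusted p = 0.0103) and by 1.11 ± 0.20 without PD (adjusted p = 0.00867), to 4.99-fold and 5.11-fold the mean FPKM of 2i+LIF. Without CH the difference was 0.14 (95% interval -0.34 to 0.61, adjusted p = 0.663). Between CH+LIF and 2i it was 0.0024 (-0.47 to 0.48, adjusted p = 0.997).

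The Sox3 difference between LIF+PD and 2i was -0.98 (adjusted p = 0.0127) and that between CH+LIF and LIF+PD was 0.98 (adjusted p = 0.0109). Several of these calls were lost when a single culture was left out, which leaves 1 medium with 1 culture. In those fits the differences kept their direction. They were 1.08 and 1.14 without LIF, 1.09 without PD and -0.95 and -0.91 for LIF+PD against 2i. For CH+LIF against LIF+PD they were 0.91 and 0.73. The rise without LIF was lost without either 2i+LIF culture (adjusted p = 0.0593 and 0.0530), and the rise without PD without replicate 1 of 2i+LIF (0.05004). The difference of LIF+PD from 2i was lost without replicate 1 of 2i (0.0560) or replicate 2 of LIF+PD (0.0671), and that of CH+LIF from LIF+PD without replicate 2 of LIF+PD (0.0587) or of CH+LIF (0.0544).

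Sox1 (ENSMUSG00000096014, chr8:12395295-12400126, plus strand, 1 exon), a marker of the first neural precursors, was the lowest member in mean level. It was measured at 0.557 and 0.631 FPKM in 2i+LIF, 0.748 and 1.34 in LIF+PD and 1.04 and 1.83 in CH+LIF. In 2i it was listed at 0 in replicate 1, the culture of lowest estimated depth, and at 0.0595 in replicate 2, below all 6 other cultures. Sox1 was higher in LIF+PD than in 2i by a log2 difference of 0.97 ± 0.23 (SE, adjusted p = 0.0210) and higher in CH+LIF than in 2i by 1.22 ± 0.23 (adjusted p = 0.0105). Against 2i+LIF the differences were -0.63 without LIF (adjusted p = 0.103), 0.34 without CH (0.314) and 0.59 without PD (0.104), of which none was called. With a pseudocount of 0.1 in place of 1 the difference without LIF was -2.46 and was called (adjusted p = 0.0210). The call for LIF+PD against 2i was lost without replicate 1 (adjusted p = 0.0806) or 2 (0.0573) of 2i or replicate 2 of LIF+PD (0.111), and that for CH+LIF against 2i without replicate 2 of CH+LIF (0.0584).

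Sox21 (ENSMUSG00000061517, chr14:118233232-118237030, minus strand, 1 exon) differed between every pair of media, the only member called in all 6 comparisons. It was measured at 9.55 and 9.95 FPKM in 2i+LIF, 2.34 and 3.20 in 2i, 14.9 and 16.4 in LIF+PD and 0.608 and 0.966 in CH+LIF. The order from CH+LIF through 2i and 2i+LIF to LIF+PD held with no overlap between neighbouring media. Sox21 fell by 1.52 ± 0.16 (SE) on the log2 scale without LIF (adjusted p = 0.00138), to 0.284 of the mean FPKM of 2i+LIF. Without PD the log2 difference was -2.60 ± 0.16 (adjusted p = 0.000334), and the mean in CH+LIF was 0.0807 of that in 2i+LIF.

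Without CH, Sox21 rose by a log2 difference of 0.63 ± 0.16 (SE, adjusted p = 0.0301), to 1.61-fold the mean in 2i+LIF. This was the least stable of its calls. It was lost without replicate 1 (adjusted p = 0.129) or 2 (0.103) of 2i+LIF, without replicate 1 (0.0891) or 2 (0.135) of LIF+PD, with a pseudocount of 0.1 (0.0802) and with no filter on low values (0.0633). The difference of LIF+PD from 2i was 2.15 (adjusted p = 0.000234), that of CH+LIF from 2i was -1.08 (0.00472) and that of CH+LIF from LIF+PD was -3.23 (5.01e-05), a 19.9-fold higher mean in LIF+PD. These 3 calls and those without LIF and without PD held with each culture left out in turn and in all other settings.

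The first 799 bases of the Sox21 locus overlap the noncoding RNA gene Gm4675, which is annotated on the plus strand at chr14:118236232-118261199. Gm4675 was measured at 2.48 and 2.11 FPKM in 2i+LIF, 0.337 and 1.00 in 2i, 3.61 and 3.64 in LIF+PD and 0.0722 and 0.356 in CH+LIF. It was highest in both LIF+PD cultures and lowest in replicate 1 of CH+LIF, and its CH+LIF and 2i cultures overlapped. Gm4675 fell by 1.01 without LIF (adjusted p = 0.0251) and by 1.45 without PD (adjusted p = 0.00554) on the log2 scale, and without CH its difference was 0.49 (adjusted p = 0.167). The study's own read counting, which did not make these FPKM values, used a reverse-strand setting. The strand setting behind the FPKM values is not given in the sources used here, so whether reads of the shared bases were kept apart by strand is not known.

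**Figure D3:**
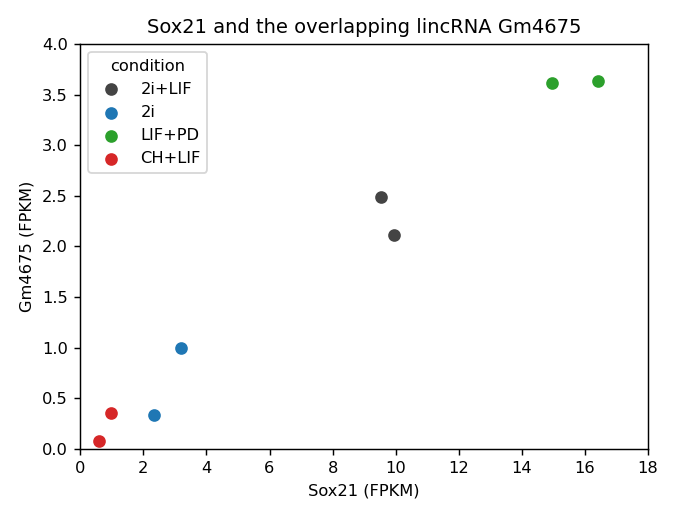
FPKM of Sox21 (horizontal) and of the overlapping gene Gm4675 (vertical) in the 8 cultures, coloured by medium, on linear axes. Both LIF+PD cultures are at the upper right (14.9 and 16.4 for Sox21) and both CH+LIF cultures at the lower left (0.608 and 0.966).

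The sequence around the start of Sox21 is shown because this gene had the largest span of levels over the media among members above 0 throughout, 27.0-fold. It is the RefSeq sequence of GRCm38.p6 from 250 bases before to 50 bases after the annotated start, chr14:118236981-118237280, read 5′ to 3′ on the minus strand, and capitals mark the match to the ETS core CCGGAA.
Sox21: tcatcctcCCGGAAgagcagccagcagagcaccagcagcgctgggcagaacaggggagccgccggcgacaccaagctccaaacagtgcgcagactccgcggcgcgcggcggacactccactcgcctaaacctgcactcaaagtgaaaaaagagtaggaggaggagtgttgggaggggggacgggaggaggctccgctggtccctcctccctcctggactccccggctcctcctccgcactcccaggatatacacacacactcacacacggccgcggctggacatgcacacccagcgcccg
A match to CCGGAA on either strand was found in 14.9% of 32851 such promoter windows, and in those of Sox2 and Sox21 among the 8 members with an entry.

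The group C genes moved in the same direction from 2i+LIF in all 3 comparisons. These factors activate transcription in progenitor cells of many tissues, and Sox4 and Sox11 are known for their part in neuronal differentiation. Sox4 (ENSMUSG00000076431, chr13:28948919-28953713, minus strand, 1 exon) was measured at 0.562 and 0.848 FPKM in 2i+LIF, 1.82 and 3.18 in 2i, 3.25 and 3.52 in LIF+PD and 5.60 and 5.74 in CH+LIF. Both 2i+LIF cultures were below and both CH+LIF cultures above all others. Sox4 rose by a log2 difference of 1.02 ± 0.21 (SE, adjusted p = 0.0163) without LIF, by 1.37 (adjusted p = 0.00413) without CH and by 1.97 (adjusted p = 0.00142) without PD, the last an 8.04-fold mean FPKM. It was also higher in CH+LIF than in 2i, by 0.96 (adjusted p = 0.0177). Between CH+LIF and LIF+PD the difference was 0.61 (95% interval 0.12 to 1.09, adjusted p = 0.0651) and was called in 6 other settings (adjusted p 0.0259 to 0.0438), and between LIF+PD and 2i it was 0.35 (-0.14 to 0.84, adjusted p = 0.264).

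The Sox4 call without LIF was lost without replicate 1 (adjusted p = 0.0906) or 2 (0.0501) of 2i+LIF, without replicate 2 of 2i (0.0509) and when only these 2 media were fitted (0.0746). That for CH+LIF against 2i was lost without replicate 1 of 2i (0.0577), without replicate 1 (0.0773) or 2 (0.0767) of CH+LIF and when only these media were fitted (0.0612). The rises without CH and without PD held in every setting.

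Sox11 (ENSMUSG00000063632, deposited at chr12:27340697-27342709, minus strand, 1 exon) followed a similar course. Its FPKM was 0.740 and 0.585 in 2i+LIF, 2.57 and 4.28 in 2i, 1.97 and 3.00 in LIF+PD and 5.37 and 5.13 in CH+LIF. The 2i+LIF cultures were again lowest and the CH+LIF cultures highest, while 2i and LIF+PD overlapped. Sox11 rose by a log2 difference of 1.39 ± 0.23 (SE, adjusted p = 0.00732) without LIF, by 1.05 (adjusted p = 0.0166) without CH and by 1.91 (adjusted p = 0.00211) without PD, to 5.17-fold, 3.75-fold and 7.93-fold the mean FPKM. It was higher in CH+LIF than in LIF+PD by 0.86 (adjusted p = 0.0294). For CH+LIF against 2i the difference was 0.53 (95% interval -0.02 to 1.07, adjusted p = 0.141).

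The Sox11 rise without CH was lost without replicate 1 (adjusted p = 0.0618) or 2 (0.0825) of 2i+LIF or replicate 2 of LIF+PD (0.0885). Its difference between CH+LIF and LIF+PD was lost without replicate 1 of LIF+PD (0.147), replicate 1 (0.122) or 2 (0.0933) of CH+LIF and with no filter on low values (0.0674). The deposited Sox11 locus spans 2013 bases, whereas the GENCODE M21 gene runs from 27334264 to 27342574, and the remaining stretch is outside the deposited locus.

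Sox12 (ENSMUSG00000051817, chr2:152393611-152398063, minus strand, 1 or 2 exons by transcript), the most abundant group C gene, was measured at 24.8 and 25.8 FPKM in 2i+LIF, 42.0 and 40.0 in 2i, 36.6 and 39.4 in LIF+PD and 36.6 and 37.6 in CH+LIF. The 2i+LIF cultures were the lowest, and the 6 others lay within a narrow band. Sox12 rose by a log2 difference of 0.67 ± 0.08 (SE, adjusted p = 0.00210) without LIF, 0.57 (adjusted p = 0.00315) without CH and 0.53 (adjusted p = 0.00463) without PD, to 1.62-fold, 1.503-fold and 1.47-fold the mean FPKM. All 3 calls held in every setting. Between the media with a pair of additives the log2 differences of Sox12 were -0.11, -0.14 and -0.04, none called, with adjusted p-values of 0.384, 0.246 and 0.777. The summed FPKM of Sox4, Sox11 and Sox12 was 26.1 and 27.2 in 2i+LIF and 41.8 to 48.4 in the other 6 cultures.

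The promoter windows of the group C genes are shown because these 3 genes rose together, with the same build, length and source as that of Sox21. Sox4 is chr13:28953650-28953949, Sox11 chr12:27342669-27342968 and Sox12 chr2:152397997-152398296, all on the minus strand. Capitals mark matches to the CCAAT box (CCAAT, or ATTGG on the other strand) and, in Sox12, also to the octamer core ATGCAAA.
Sox4: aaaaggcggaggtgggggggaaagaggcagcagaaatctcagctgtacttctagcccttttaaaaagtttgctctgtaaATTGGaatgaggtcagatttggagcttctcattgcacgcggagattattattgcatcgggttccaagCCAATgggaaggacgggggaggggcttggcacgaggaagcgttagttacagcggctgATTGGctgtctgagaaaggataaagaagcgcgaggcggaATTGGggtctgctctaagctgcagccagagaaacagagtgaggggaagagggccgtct
Sox11: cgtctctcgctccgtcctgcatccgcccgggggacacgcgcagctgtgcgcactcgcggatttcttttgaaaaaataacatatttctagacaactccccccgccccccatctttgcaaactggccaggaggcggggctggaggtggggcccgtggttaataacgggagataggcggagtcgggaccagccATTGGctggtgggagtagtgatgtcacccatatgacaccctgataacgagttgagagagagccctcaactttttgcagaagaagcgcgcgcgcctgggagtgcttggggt
Sox12: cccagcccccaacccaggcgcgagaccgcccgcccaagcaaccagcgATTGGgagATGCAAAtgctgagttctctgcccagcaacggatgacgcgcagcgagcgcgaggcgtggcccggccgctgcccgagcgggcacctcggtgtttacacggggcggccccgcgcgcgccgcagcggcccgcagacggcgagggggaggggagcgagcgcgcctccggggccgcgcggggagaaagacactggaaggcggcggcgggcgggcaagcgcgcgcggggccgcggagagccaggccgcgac
The Sox4 window holds 4 CCAAT matches and the Sox11 and Sox12 windows 1 each. CCAAT was found in 5 of 8 members with an entry, those of group C, Sox1 and Sox2, and in 37.4% of all windows. ATGCAAA was found in Sox1, Sox2 and Sox12 and in 4.63% of all windows. The SOX core ACAAT was found in Sox15 (31.0% of all windows), the STAT motif TTCNNNGAA in Sox13 (8.30%) and the TCF/LEF motif CTTTGAT in 0 of 8 members (3.73%). Both strands were searched, no matches of different motifs overlapped in these windows, and the motifs were chosen after the sequences had been seen.

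Sox13 (ENSMUSG00000070643, chr1:133382303-133424377, minus strand, 2 to 14 exons by transcript), a group D factor known as a modulator of Wnt and TCF signalling, was the member that fell without CH. It was measured at 32.0 and 24.5 FPKM in 2i+LIF, 30.7 and 23.3 in 2i, 13.2 and 8.55 in LIF+PD and 20.7 and 18.8 in CH+LIF. Both LIF+PD cultures, the only ones without CH, were below the 6 others. On the log2 scale Sox13 fell by 1.32 ± 0.22 (SE, adjusted p = 0.00635) without CH, to 0.385 of the mean FPKM of 2i+LIF. It was lower in LIF+PD than in 2i by a difference of -1.25 (adjusted p = 0.00706). Both calls held in every setting.

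Sox13 was higher in CH+LIF than in LIF+PD by 0.84 (adjusted p = 0.0294), a call lost without replicate 2 of LIF+PD (difference 0.55, adjusted p = 0.134), replicate 1 (0.130) or 2 (0.0804) of CH+LIF, with no filter on low values (0.0665) and when only these 2 media were fitted (0.0518). Without LIF its difference was -0.06 (95% interval -0.59 to 0.47, adjusted p = 0.876) and without PD it was -0.48 (-1.01 to 0.05, adjusted p = 0.158).

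Sox15 (ENSMUSG00000041287, chr11:69655314-69656727, plus strand, 2 exons), a group G factor that can bind with Oct4 and is present in ESCs, was measured at 29.5 and 26.7 FPKM in 2i+LIF, 42.3 and 36.3 in 2i, 31.5 and 28.6 in LIF+PD and 19.9 and 24.9 in CH+LIF. The 2i cultures were highest and the CH+LIF cultures lowest, and 2i+LIF and LIF+PD overlapped. Sox15 was lower in CH+LIF than in 2i by a log2 difference of -0.79 ± 0.14 (SE, adjusted p = 0.00748), a mean of 0.570 of that in 2i, and this call held in every setting. Its other differences were not called. Without LIF it was 0.47 (95% interval 0.15 to 0.79, adjusted p = 0.0531), which was called under TPM (adjusted p = 0.0386) and under quantile normalization (0.0490). Without CH it was 0.09 (adjusted p = 0.650) and without PD -0.32 (adjusted p = 0.129). The Sox15 locus shares 31 bases with Mpdu1 on the opposite strand, which was measured at 69.3 to 92.8 FPKM and was not called in any comparison. Of 9 transcripts listed around the members, 6 were found and only Gm4675 and Mpdu1 passed the filter. Gm5607, which spans Sox1, was at most at 0.0608 FPKM, and Gm25239 within Sox1 and Gm26735, which shares 2753 bases with Sox4, were listed at 0 in every culture.

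As a share of the summed FPKM of the 9 genes, Sox2 made up 61.7% to 72.0% per culture. Sox12 held 7.15% to 14.7%, Sox15 7.49% to 12.1% and Sox13 2.49% to 9.22%, while each of the other 5 stayed below 5%. With Sox2 set aside, Sox12 held 25.3% to 40.0% of the remainder, Sox13 8.44% to 32.6% and Sox21 0.665% to 16.2%. In these bulk samples, fewer cells that express a gene and less of its RNA per cell cannot be told apart.

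**Figure D4:**
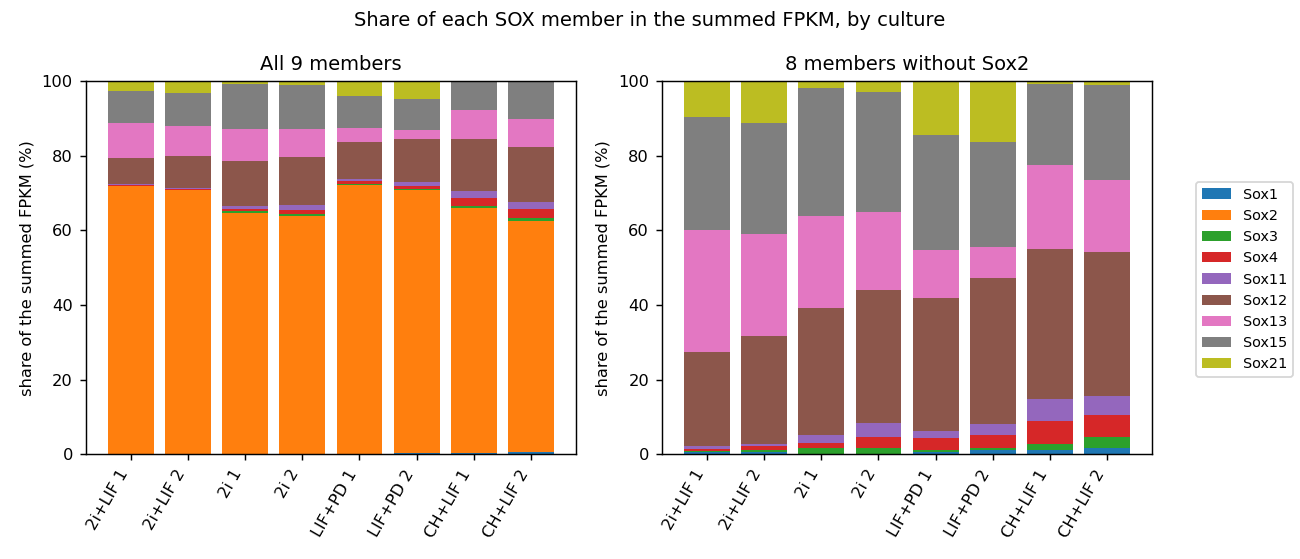
Share (%) of each SOX gene in the summed FPKM of the 9 genes (left) and of the 8 genes without Sox2 (right), 1 stacked bar for each culture. Sox2 fills 61.7% to 72.0% of each left bar, and Sox21 takes up to 16.2% of a right bar, in LIF+PD.

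Pearson's r between the members was computed on log2(FPKM + 1) over the 8 cultures. It is given as a description, since the cultures fall into 4 media of 2 and the genes share libraries. Of the 36 pairs, 15 had a positive and 21 a negative r. Group C genes had high coefficients with each other, 0.93 for Sox4 and Sox11, 0.81 for Sox11 and Sox12 and 0.75 for Sox4 and Sox12. Sox2 and Sox21 had an r of 0.87. Sox3 ran opposite to both, with -0.88 for Sox21 and -0.74 for Sox2, although it is a B1 gene like Sox2. Sox1 and Sox15 had an r of -0.78.

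**Figure D5:**
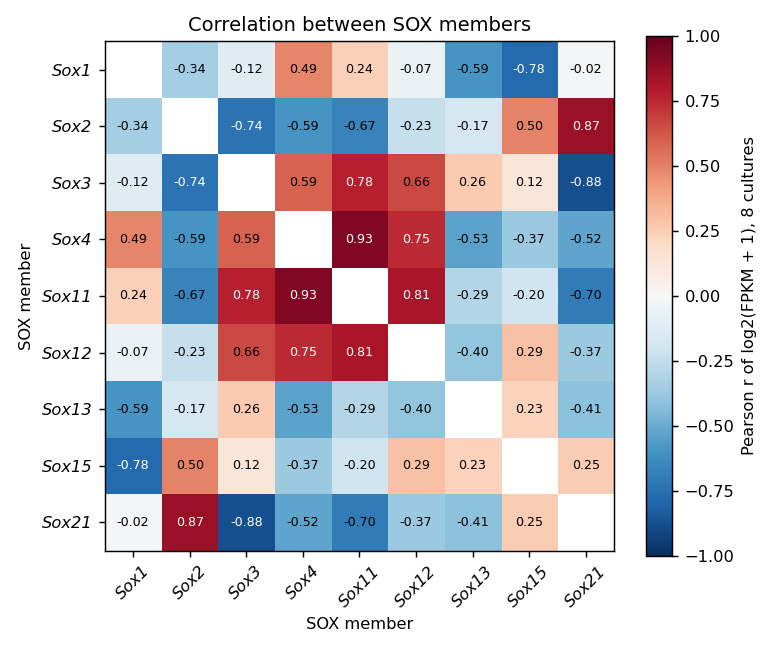
Pearson's r of log2(FPKM + 1) over the 8 cultures for each pair of SOX genes, printed in each square and coloured from -1 (blue) to 1 (red). The squares of Sox4, Sox11 and Sox12 hold 0.75 to 0.93, and that of Sox3 with Sox21 holds -0.88.

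Among 4694 tested genes that spanned at least 1 log2 unit, the gene with the course most like that of Sox21 was Acsf2 (r = 0.991 over 8 cultures), at 34.8 and 36.8 FPKM in 2i+LIF and 8.90 and 9.61 in CH+LIF. Cox7a1 was most like Sox2 (0.994) and Exoc3l most like Sox3 (0.978). In each medium Cox7a1 was, like Sox2, higher in replicate 1 than in replicate 2. Its r therefore covers that replicate difference as well as the media. Fah was most like Sox4 (0.984) and Rassf3 most like Sox11 (0.988). The second for Sox11 was Lin28a (0.9752), an RNA-binding protein of pluripotent cells. Lin28a went from 31.2 and 29.4 FPKM in 2i+LIF to 159 and 158 in CH+LIF. The third for Sox11 was Thy1 (0.972), which is 1 of the fibroblast markers above. Lsr was most like Sox12 (0.988). For Sox13 it was Slc44a2 (0.980), followed by Lrrn2 (0.974) and the Wnt receptor gene Fzd10 (0.973). F11r was most like Sox15 (0.962) and Islr2 most like Sox1 (0.980). In each medium Islr2 and Slc44a2 also kept the replicate order of Sox1 and Sox13. With so many candidates and 8 cultures, coefficients of this size are to be read as a ranking.

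Of the other SOX genes, 11 were listed and found (Sox5, Sox6, Sox7, Sox8, Sox9, Sox10, Sox14, Sox17, Sox18, Sox30 and Sry), and 0 of 11 passed the filter. The highest value of any of them was 0.951 FPKM, for Sox7 in replicate 2 of CH+LIF. Sry was listed at 0 in every culture.

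POU factors are the best known partners of SOX proteins. Of 11 listed, 7 were tested and 4 differed among the media, where 46.8% of all tested genes did. Pou5f1, which encodes Oct4, was measured at 1625 to 2269 FPKM and was not among these. Without LIF 1 POU gene was higher (9.77% of all genes) and 1 lower (8.86%), without CH 2 were higher (14.8%) and 1 lower (10.4%), and without PD 3 were higher (12.2%) and 0 lower (13.3%), with median log2 differences of -0.32, -0.26 and 0.64. Pou3f1 rose without CH (log2 difference 1.61, adjusted p = 0.00234). Pou2f3 fell without LIF (-2.51, adjusted p = 0.000764) and without CH (-1.51, adjusted p = 0.00443) and rose without PD (0.92, adjusted p = 0.0281).

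Composite elements bound jointly by Oct4 and Sox2 have been described at 8 listed genes, Sox2 among them. All 8 were tested and 6 differed among the media, against 46.8% of all genes. Without PD, 3 of the 8, Sox2 itself included, were lower (13.3% of all genes) and 1 was higher (12.2%), with a median log2 difference of -0.44. Nanog fell by 0.80 (adjusted p = 0.00366) and Fgf4 by 0.82 (adjusted p = 0.00129) on the log2 scale, and Utf1 rose by 2.15 (adjusted p = 0.000582). In CH+LIF against LIF+PD, 5 of the 8 were lower (17.8% of all genes) and 1 higher (12.6%). Sox2 was not called without LIF or without CH, where 3 of the 8 were called in each case. Without LIF 1 was higher (9.77% of all genes) and 2 were lower (8.86%), Fgf4 by a log2 difference of -0.63 (adjusted p = 0.00330) and Fbxo15 by -0.61 (adjusted p = 0.0174). Without CH 3 were higher (14.8%) and 0 lower (10.4%). Utf1 also rose without LIF (1.80, adjusted p = 0.000802) and without CH (1.74, adjusted p = 0.000666).

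Of 18 neural progenitor and neuronal genes, 17 were found, 7 were tested and 7 differed among the media, against 46.8% of all genes. Without PD, where Sox4 and Sox11 had their largest differences from 2i+LIF, 0 of the 7 were higher (12.2% of all genes) and 4 were lower (13.3%), with a median of -0.65. Without CH, 5 were higher (14.8%) and 1 lower (10.4%), with a median of 0.62. Without LIF, 3 were higher (9.77%) and 2 lower (8.86%), with a median of -0.47. Otx2 rose by 4.03 (adjusted p = 2.27e-05) and Pax6 by 2.98 (adjusted p = 5.98e-05) without CH. Without PD their differences were 0.01 (adjusted p = 0.961) and 0.19 (adjusted p = 0.364). The study counts Otx2 among markers of epiblast stem cells, a primed state of pluripotency, so Otx2 is not a marker of neural cells alone. Nes fell by 1.18 without PD (adjusted p = 0.00186) and rose by 0.62 without CH (adjusted p = 0.0176). Without LIF, Otx2 rose by 2.34 (adjusted p = 0.000169) and Pax6 by 2.64 (adjusted p = 9.67e-05), and the difference of Nes was -0.47 (adjusted p = 0.0542). The summed FPKM of the neural progenitor markers was 6.31 and 6.92 in 2i+LIF, 10.9 and 12.8 in 2i, 20.4 and 20.9 in LIF+PD and 3.66 and 4.43 in CH+LIF. At most 2 of these 8 markers reached an FPKM of 1 in both cultures of a medium. Mesoderm markers, 1 of 5 above 1 in both cultures of each medium, summed to 5.43 and 6.30 in 2i+LIF, 9.74 and 16.3 in 2i, 1.93 and 2.20 in LIF+PD and 19.8 and 37.7 in CH+LIF, an order opposite to that of Sox21. That order was set by T, which was at 0.161 and 0.210 in LIF+PD and 36.3 and 18.5 in CH+LIF. Kdr, the 1 marker above 1 in LIF+PD (1.41 and 1.38), was lower in CH+LIF (0.627 and 0.607) and in 2i (0.280 and 0.353). Trophectoderm markers, 4 to 6 of 8 above 1, summed to 77.5 and 94.2 in LIF+PD and to 42.9 to 56.8 in the other media. Their members differed in direction, since Gata3 went from 2.10 and 0.462 in 2i+LIF to 14.4 and 18.4 in LIF+PD and Tfap2c from 21.0 and 27.2 to 45.4 and 52.8, while Cdx2 went from 10.2 and 7.91 to 0.0433 and 0.0960. The part of these markers in the SOX results was not tested.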

How the data were processed

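RNA of 8 mouse ESC cultures, 2 for each of 4 media, was sequenced by the authors. The authors deposited FPKM values per gene with a lower and an upper bound in FPKM, per culture and not pooled. The submitters' processing notes name TopHat2, Cufflinks, Cuffdiff and mm10, and the confidence level of the bounds is not given in the sources used here. The sample records describe polyA RNA and the study's methods rRNA-depleted RNA. The study tested read counts. FPKM are not counts, so that test could not be run here and limma was used. FPKM depend on the transcript lengths and library totals that the authors used.

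Rows that shared an identifier (22) were summed, which left 38991 genes. The 9 members and all gene lists were chosen with earlier results of these data known. Groups were taken from the sample labels. Genes were tested if 2 or more cultures reached 1 FPKM (12927 genes), and their log2(FPKM + 1) was fitted in limma 3.58.1 (R 4.3.3) with 4 medium means, a mean-variance trend and 4 residual degrees of freedom, and 6 comparisons and a moderated F were each adjusted by the Benjamini-Hochberg method. The procedure was tested on simulated data. No exact permutation test of 2 against 2 cultures was made, since it cannot reach the threshold of 0.05. Named genes were the members, genes whose locus overlaps a member, up to 4 genes a list with the smallest F p-value, and for each member up to 3 genes of highest r. Pou5f1 and Sox7 were named for their levels after their values had been seen. Tubb3 was not matched and is not analysed here.

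Replicate numbers were not taken as pairs. Over all tested genes, correlations between same-numbered cultures, after subtraction of each medium's mean, were between -0.0283 and 0.0925. These correlations do not exclude a replicate difference in single genes. Sox1, Sox2, Sox4, Sox13 and Sox21 kept 1 replicate order in 4 of 4 media. The share of all genes that did so was not computed. Whole reads could not be recovered, so no counting error is given. Relative depth is the ratio at which values of weakly expressed genes gathered between cultures, and 9.86% to 22.3% of the ratios lay there. Gene strand and exons come from GENCODE M21, promoter windows from RefSeq (GRCm38.p6), where 8 of 9 members had an entry and Sox3 had none. Tables and figures were made in Python 3.11.15 (matplotlib 3.10.9, numpy 2.4.6, pandas 2.3.3). Alternatives were pseudocounts of 0.1 and 5, no filter or a filter of 5 FPKM, TPM, size factors, quantile normalization, no trend, robust moderation, fits of 2 media only, a replicate block and each culture left out.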

Additional observations from a re-analysis of the deposited data

How the results depend on the processing

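Leaving out each culture in turn, the number of SOX genes called ranged from 3 to 6 without LIF, 3 to 5 without CH, 4 to 6 without PD, 2 to 4 for LIF+PD against 2i, 2 to 4 for CH+LIF against 2i, 3 to 6 for CH+LIF against LIF+PD and 7 to 9 for any difference. The number of all genes called ranged from 1167 to 2141 (2408 with all cultures), 1687 to 3342 (3263), 1520 to 3330 (3286), 1970 to 2966 (3242), 1494 to 2705 (3089), 2311 to 3991 (3928) and 4457 to 5647 (6052) in the same order. The lone culture of a medium is then assumed to vary like the others. With no filter on low values 3 SOX genes in place of 5 were called for CH+LIF against LIF+PD, and with a filter of 5 FPKM, under which Sox1 and Sox3 were not tested, 2 in place of 4 for LIF+PD against 2i. With only the 2 media fitted, 1500 genes were called without LIF and 1808 for CH+LIF against 2i. Calls on single SOX genes were followed too, and each pair of a call and a setting was counted. Leaving out a culture of the media compared lost calls of Sox1, Sox2, Sox3, Sox4, Sox11, Sox13 and Sox21. Leaving out another culture lost none. In other settings 7 of 313 pairs lost the call, and no call turned in any setting. Of the pairs not called, 14 were gained in other settings, and some were gained on leaving out a culture. Among the gains were Sox15 without LIF when replicate 1 (adjusted p = 0.0430) or 2 (0.0434) of CH+LIF was left out, Sox15 in CH+LIF against LIF+PD without replicate 2 of CH+LIF (0.0383), Sox2 in CH+LIF against 2i under quantile normalization (0.0204), and Sox4 in CH+LIF against LIF+PD without replicate 1 (0.0259) or 2 (0.0265) of 2i, with a pseudocount of 5 (0.02996), under quantile normalization (0.0292) and with only the 2 media fitted (0.0306).

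Differences that turned sign were not called in any setting. For Sox3 in CH+LIF against 2i they were -0.0096 with a pseudocount of 0.1, -0.029 without replicate 2 of 2i and -0.25 without replicate 2 of CH+LIF, in a range of -0.25 to 0.25 on leaving out each culture. For Sox3 without CH it was -0.045 under quantile normalization. For Sox12 in CH+LIF against LIF+PD they were 0.032 under TPM and 0.017 without replicate 2 of LIF+PD, in a range of -0.087 to 0.017 on leaving out each culture. For Sox13 without LIF they were 0.12 without replicate 1 of 2i+LIF and 0.13 without replicate 2 of 2i. The size of log2 differences of weakly expressed genes depended on the pseudocount. For Sox3 without LIF it was 2.07 with 0.1 and 0.38 with 5, for Sox4 without CH 2.14 and 0.56, for Sox11 without LIF 2.17 and 0.57, and for Sox1 in CH+LIF against 2i 3.55 and 0.35.

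With the replicate block, the counts of SOX genes called were 5, 5, 7, 5, 6, 6 and 9, and no call was lost. Added were Sox13 without PD (adjusted p = 0.0314), Sox2 in LIF+PD (0.0345) and CH+LIF (0.0148) and Sox13 in CH+LIF (0.0483) against 2i, and Sox4 in CH+LIF against LIF+PD (0.0438). The same number does not mark a shared origin in the sources used here.

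With 2 cultures a medium and unknown read depth, a difference that was not called is not shown to be absent. Sox1 and Sox3 were near or below 1 FPKM in several media. Sox4 (0.562 and 0.848) and Sox11 (0.740 and 0.585) were below 1 in 2i+LIF, as was Sox21 in CH+LIF (0.608 and 0.966). The largest fold changes of Sox4, Sox11 and Sox21 rest on these low values. Calls of Sox1, Sox2, Sox3, Sox4, Sox11, Sox13 and Sox21 were lost when a single culture was left out.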
